A study of Drosophila melanogaster with 6 samples.

Results

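The 10 genes described here form the core of the ATF4 and amino acid response of Drosophila: crc, Gcn2, PEK, Thor, AsnS, aay, Shmt, Nmdmc, Sesn and slif. They were taken by symbol, with no cut on their values, from the 17714 genes that the files list, and all 10 were found. Earlier results of these data were known when they were chosen. The cells were Kc cells, an embryonic line with traits of plasmatocytes, the macrophage-like blood cells of the fly. One group of 3 libraries was labelled wild type (WT) and the other group of 3 libraries was labelled ko (KO), in a series whose title names CG14906, also called mettl4, and its part in m6A methylation of the U2 snRNA. Both groups were of the same line, and no drug, amino acid withdrawal or other treatment is recorded for either. The sample names of the second group begin with OE although its source and genotype fields read ko, so KO here means the libraries labelled ko. How the ko cells were made, whether they are 1 clone, and whether a group's libraries stem from separate cultures is not stated in the labels. The p-values thus reflect library-to-library spread alone, and that spread may be technical.

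The integrated stress response slows protein synthesis when cells lack amino acids or when unfolded proteins collect in the endoplasmic reticulum. Its kinases, among them Gcn2 and PEK (the fly PERK), phosphorylate the initiation factor eIF2alpha. General initiation then falls, while the mRNA of crc, the fly ATF4, is translated more through short reading frames in its leader. The crc protein is a bZIP transcription factor, and its known targets in flies and mammals include the translation repressor Thor (4E-BP) and enzymes that make asparagine, serine and one-carbon units. Sesn and slif belong to the same theme on the side of the TORC1 kinase, since Sesn restrains TORC1 and slif carries cationic amino acids into the cell. Only RNA was measured, so neither phosphorylation of eIF2alpha nor the amount of crc protein was seen.

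Expected counts, the reads per gene that RSEM estimates, summed to between 9963557 and 18906951 per library, and the values below are CPM (counts scaled to a common library size) with TMM-scaled totals unless TPM, which is also scaled to transcript length, is named. CG14906 did not check the labels, because its RNA lay at 18.9, 20.1 and 16.4 CPM in WT replicates 1 to 3 and at 20.3, 18.5 and 20.2 CPM in KO replicates 1 to 3 (log2 difference 0.10 ± 0.10 SE, adjusted p = 0.435). A lesion that leaves the amount of RNA unchanged would not show in these values. Of 6 plasmatocyte markers, Hml stood at 3383 CPM or more in every library, and NimC1 was too low to test. Mean levels rose from 16.7 CPM in WT to 718 CPM in KO for Ppn, from 34.7 to 615 CPM for Pxn and from 355 to 402 CPM for srp. The marker eater fell from 150 to 35.1 CPM, so the groups differed widely in some of these markers. The summed level of the 6 markers was 3933 to 5283 CPM in WT and 4864 to 7088 CPM in KO, of which Hml alone averaged 4174 and 4494 CPM. RNAs of the mitochondrial genome took 2.95% to 3.26% of the counts in WT and 3.67% to 4.66% in KO, and nuclear rRNA took 3.98% and 4.11% in the libraries numbered 1 of WT and KO against at most 1.83% in the others. The part of these differences in the results below was not tested.

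The test called 4551 of 8405 genes, or 54.1%, at an adjusted p under 0.05 in edgeR's quasi-likelihood test with Benjamini-Hochberg adjustment, 27.7% higher and 26.5% lower in KO. All 10 genes of the response passed the filter on low counts. Of these, 5 were higher in KO (Thor, aay, Nmdmc, Shmt and Sesn), 3 were lower (AsnS, PEK and Gcn2), and crc and slif did not pass the test. The KO libraries lay wholly above the WT libraries for those 5 genes and wholly below them for those 3, while 63.3% of all tested genes had groups that did not overlap. The median size of the log2 difference, whatever its sign, was 0.42 over the 10 genes and 0.33 over all genes tested. The response did not move as 1 block: the kinases and asparagine synthetase fell, while the serine and one-carbon enzymes rose. The transcription factor crc did not pass the test, with KO libraries both above and below all WT libraries. These are bulk samples, in which a change in the share of expressing cells and a change in RNA per cell cannot be told apart.

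**Figure D1:**
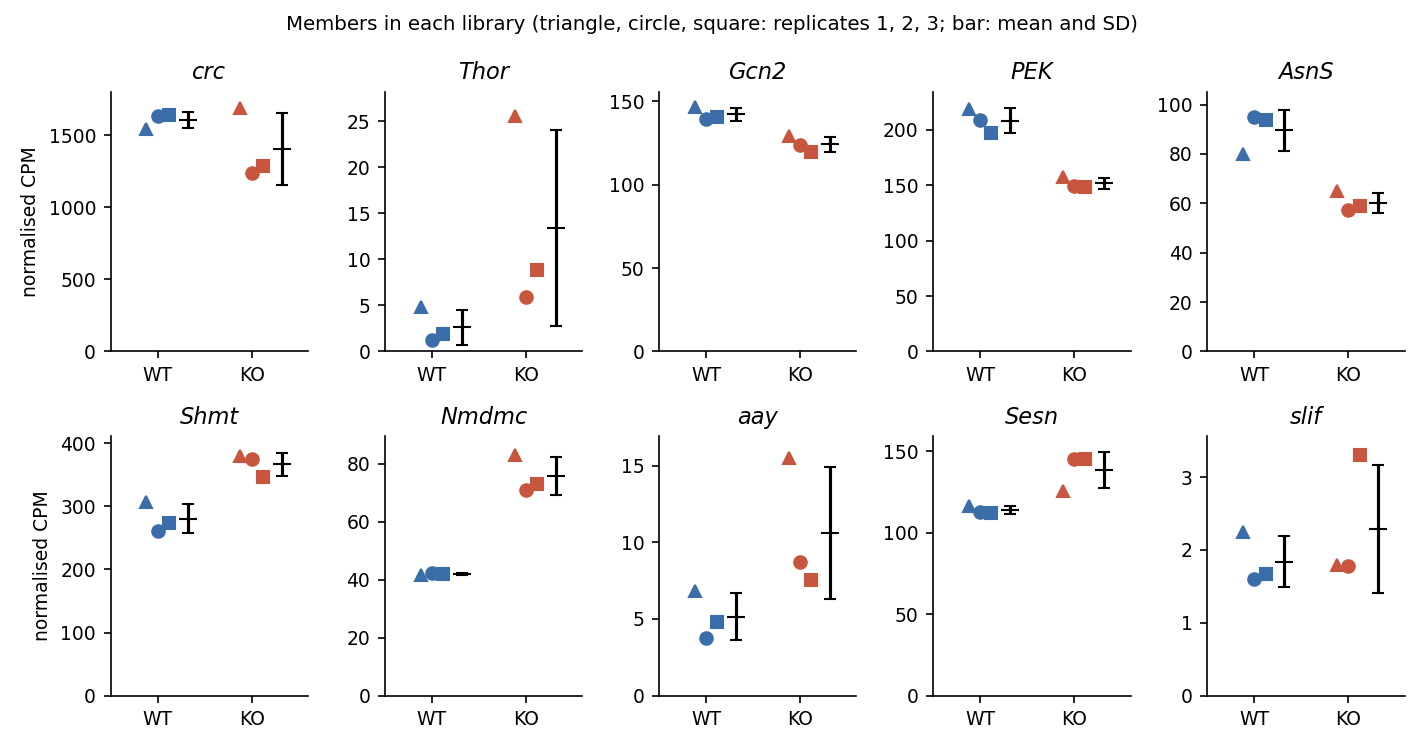
Normalised counts (CPM, linear axis from 0) of the 10 genes in the 3 WT and 3 KO libraries; triangles, circles and squares are replicates 1, 2 and 3, and bars show the mean and SD. Nmdmc, PEK and AsnS have well-parted groups, while Thor varies several-fold within a group, aay varies less than Thor but more than most, and KO replicate 1 sets crc apart.

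Both eIF2 kinases were lower in KO, PEK more clearly than Gcn2. PEK, the kinase of the endoplasmic reticulum branch (3R at 5458563 to 5464753, minus strand, dm6), was at 219, 209 and 197 CPM in WT replicates 1 to 3 and at 157, 150 and 148 CPM in KO replicates 1 to 3. Every KO library was far below the lowest WT library, by more than the spread within either group. PEK fell 1.37-fold (95% interval 1.252 to 1.507, log2 difference -0.46 ± 0.06 SE, adjusted p = 0.000545), and the 3 ratios of same-numbered KO and WT libraries were 0.718, 0.716 and 0.751.

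Gcn2, the kinase that binds uncharged tRNA (3R at 31395660 to 31402013, plus strand), was at 147, 139 and 141 CPM in WT and at 129, 124 and 120 CPM in KO. The groups did not overlap, and the gap between them was wider than the spread within either group. The fall was 1.15-fold (95% interval 1.06 to 1.24, log2 difference -0.20 ± 0.05 SE, adjusted p = 0.0139), and without KO replicate 3 it no longer passed (adjusted p = 0.0565). Gcn2 shares 454 exon bases with PNPase on the opposite strand, and PNPase rose by 0.45 on the log2 scale (adjusted p = 0.00537). How reads were parted between them is not known.

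crc was by far the most abundant of the 10, and its level did not pass the test. It lies on 2L at 21310866 to 21319527 on the plus strand, with 4 annotated transcripts whose 5′ UTRs run from 289 to 1148 bases. WT replicates 1 to 3 held 1543, 1633 and 1641 CPM, and KO replicates 1 to 3 held 1688, 1238 and 1287 CPM. KO replicates 2 and 3 were below every WT library and KO replicate 1 was above every one of them. The log2 difference was -0.19 ± 0.12 SE (95% interval -0.47 to 0.09, adjusted p = 0.209), an interval that runs from 1.39-fold lower to 1.06-fold higher. The call turned on 1 library: without KO replicate 1 crc was lower in KO (log2 difference -0.35, adjusted p = 0.00272), and likewise without both libraries numbered 1 (-0.38, adjusted p = 8.73e-07). The latter fit kept only replicates 2 and 3 of each group, the closest same-group pairs, so its p-value rests on a narrow spread that may be technical. The 69 tested genes in the same 1 Mb of 2L had a median log2 difference of -0.36, and with the median of each segment taken as an offset the sign turned (0.16, adjusted p = 0.310).

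CG46314 is annotated inside crc on the same strand, and its 1 transcript has the same exons as 1 of the 4 crc transcripts, so reads cannot part them and RSEM's split between both gene names is an estimate. It drew 22.9 ± 1.94 CPM in WT and 13.7 ± 1.14 CPM in KO (SD, n = 3 libraries each; log2 difference -0.75, adjusted p = 0.000760). These were 0.801% to 1.52% of the reads given to crc in the same library. With both genes summed the log2 difference of crc was -0.20 (adjusted p = 0.192), a sum chosen after the data were seen.

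By a fixed rule, the genes most like crc over the 6 libraries were sought among 3166 tested genes whose log2 difference lay within 0.25 of that of crc. HIP (Pearson r 0.998 of log2 CPM), CG31974 (0.997) and CG6115 (0.995) ranked first. HIP was at 119, 129 and 130 CPM in WT and at 131, 88.5 and 91.1 CPM in KO, the same order of KO libraries as in crc. Each likeness is a description over 6 libraries that share depth, normalisation and the stand-apart KO replicate 1, and HIP has a near copy, HIP-R, with which reads may be shared.

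Thor showed the widest difference of the 10 and also the widest spread. Thor encodes the fly 4E-BP, which binds the cap-binding protein eIF4E and blocks initiation, and it is a direct target of crc in flies and of the transcription factor foxo. It lies on 2L at 3478434 to 3479612, plus strand. WT replicates 1 to 3 held 4.79, 1.20 and 1.89 CPM, from expected counts of 79, 12 and 36, and KO replicates 1 to 3 held 25.6, 5.88 and 8.85 CPM, from counts of 358, 76 and 102. All KO libraries were above all WT libraries, but WT replicate 1 nearly reached KO replicate 2. Thor rose 4.97-fold (95% interval 1.68 to 14.7, log2 difference 2.31 ± 0.67 SE, adjusted p = 0.0216). Same-numbered libraries gave ratios of 5.34, 4.91 and 4.69, but no label pairs libraries by number and another matching would give less even ratios. The call depended on which libraries entered the fit without a block: the adjusted p was 0.0666 without WT replicate 2, 0.0765 without WT replicate 3 and 0.0510 without KO replicate 1, where the log2 difference was 1.44, and without WT replicate 1 the difference was 3.05. With the replicate number as a block, a pairing that no label states, the adjusted p was 9.31e-05 (log2 difference 2.33). Without both libraries numbered 1 it was 6.26e-05 (2.15), but that fit kept only replicates 2 and 3 of each group, the closest same-group pairs. Its p-value thus rests on a narrow spread that may be technical. Its 58 neighbours in the same 1 Mb had a median log2 difference of 0.48, and with the segment offset the log2 difference was 1.84 (adjusted p = 0.0581).

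**Figure D2:**
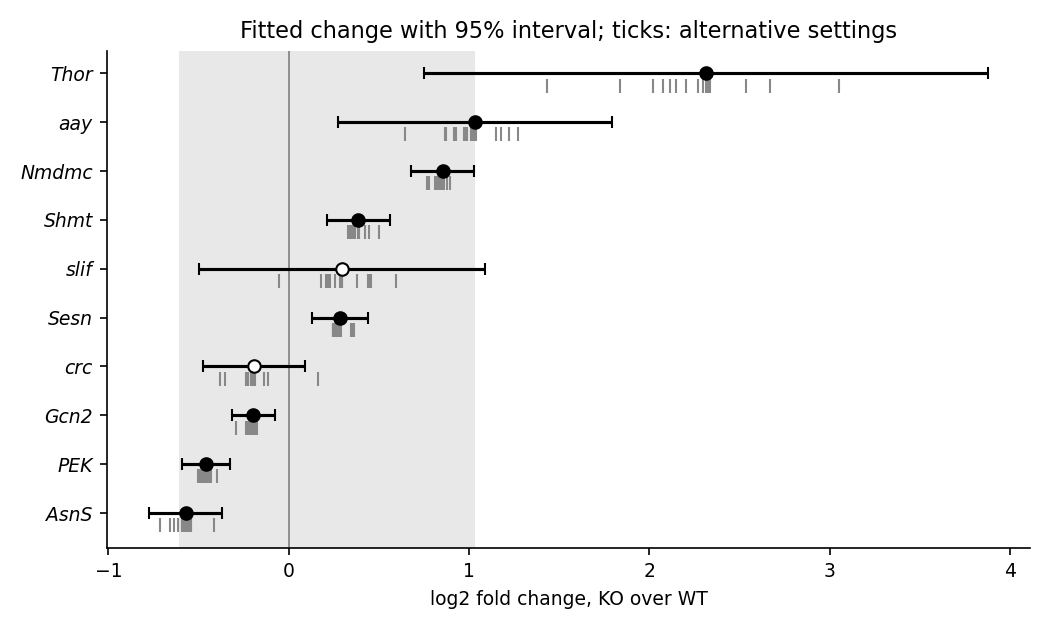
Fitted log2 fold change of KO over WT (x axis) for each of the 10 genes (y axis), with 95% intervals; short ticks are the values under the alternative settings and open points did not pass the test. Thor, aay, Nmdmc, Shmt, Sesn, AsnS, PEK and Gcn2 stay on their side of 0 in all settings, while crc and slif cross it.

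AsnS went the other way from the other biosynthetic enzymes. It encodes asparagine synthetase, which makes asparagine from aspartate and glutamine and is a classical ATF4 target in mammals. The gene is a single exon on 3L at 21173118 to 21174973, plus strand, and shares no exon base with chb, whose body it lies in. In WT replicates 1 to 3 it stood at 80.1, 95.1 and 93.8 CPM and in KO replicates 1 to 3 at 64.8, 57.2 and 58.7 CPM. All KO libraries were below all WT libraries. AsnS fell 1.49-fold (95% interval 1.29 to 1.71, log2 difference -0.57 ± 0.09 SE, adjusted p = 0.00128). The same-numbered ratios were 0.809, 0.602 and 0.626.

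The 3 enzymes of serine and one-carbon metabolism were all higher in KO. Nmdmc, a mitochondrial folate enzyme with dehydrogenase and cyclohydrolase activity (3R at 9042508 to 9050555, minus strand), was at 41.5, 42.3 and 41.8 CPM in WT and at 83.2, 70.8 and 73.1 CPM in KO. The WT libraries were nearly equal, with a smaller spread in only 2.11% of tested genes, and all KO libraries were far above them. Nmdmc rose 1.81-fold (95% interval 1.602 to 2.042, log2 difference 0.86 ± 0.07 SE, adjusted p = 0.000121), which gave it the lowest adjusted p of the 10. It shares 7 exon bases with Mst85C on the opposite strand.

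Shmt encodes serine hydroxymethyltransferase, which moves a carbon from serine to tetrahydrofolate and leaves glycine. It lies on the X at 5913067 to 5916797, minus strand. Levels were 306, 261 and 274 CPM in WT replicates 1 to 3 and 380, 375 and 346 CPM in KO replicates 1 to 3. The lowest KO library was above the highest WT library. Shmt rose 1.31-fold (95% interval 1.16 to 1.48, log2 difference 0.39 ± 0.07 SE, adjusted p = 0.00383). It shares 110 exon bases with asRNA:CR44108, which had under 1 CPM in every library, and 13 with CG12236, which fell by 0.43 on the log2 scale.

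aay encodes phosphoserine phosphatase, the last step of serine synthesis, in a single exon on 3L at 9423253 to 9424781, plus strand. WT replicates 1 to 3 held 6.80, 3.79 and 4.82 CPM and KO replicates 1 to 3 held 15.5, 8.74 and 7.55 CPM. Both libraries numbered 1 were the highest of their group, and the lowest KO library was only just above the highest WT library. aay rose 2.05-fold (95% interval 1.21 to 3.47, log2 difference 1.03 ± 0.32 SE, adjusted p = 0.0299). Without WT replicate 2 or WT replicate 3 the adjusted p was 0.0918, and without KO replicate 1 it was 0.0682.

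The other enzymes of serine, glycine and one-carbon metabolism were read from a list of 15 genes without these 3. The list was chosen with earlier results of these data known, so its counts are a description and no separate support. Of 13 tested, 8 were higher in KO and 1 was lower, 69.2% called beside 54.1% of all genes, and the median log2 difference was 0.60 beside 0.01 for all genes. CG6287, which the annotation names only by its number and which was listed as a serine synthesis enzyme, was at 1.58, 1.10 and 1.73 CPM in WT and at 13.4, 13.9 and 12.3 CPM in KO (log2 difference 3.13, adjusted p = 3.03e-05). Its lowest KO library was several-fold above its highest WT library, a wider gap than in Thor, and the KO libraries were nearly equal. CG11899, listed beside it and chosen for mention after its values were seen, was at 5.70, 7.58 and 7.96 CPM in WT and at 18.9, 12.4 and 14.3 CPM in KO (1.11, adjusted p = 0.00295). Every KO library of CG11899 was above every WT library. Ts, the thymidylate synthase that consumes a folate-bound carbon, rose by 1.19. In the route from homocysteine to cysteine, Cbs rose by 0.83 and Eip55E, annotated as Cth, by 1.34, from 671 ± 24.9 to 1700.4 ± 329 CPM. The segment offset gave 2.92 for CG6287, 0.81 for Ts, 0.94 for Cbs and 1.54 for Eip55E. The 1 gene that fell was CG10623 (-0.62), annotated as Bhmt, and pug, the cytosolic relative of Nmdmc, was at 52.6 ± 3.60 CPM in WT and 57.4 ± 3.43 CPM in KO (adjusted p = 0.191).

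**Figure D3:**
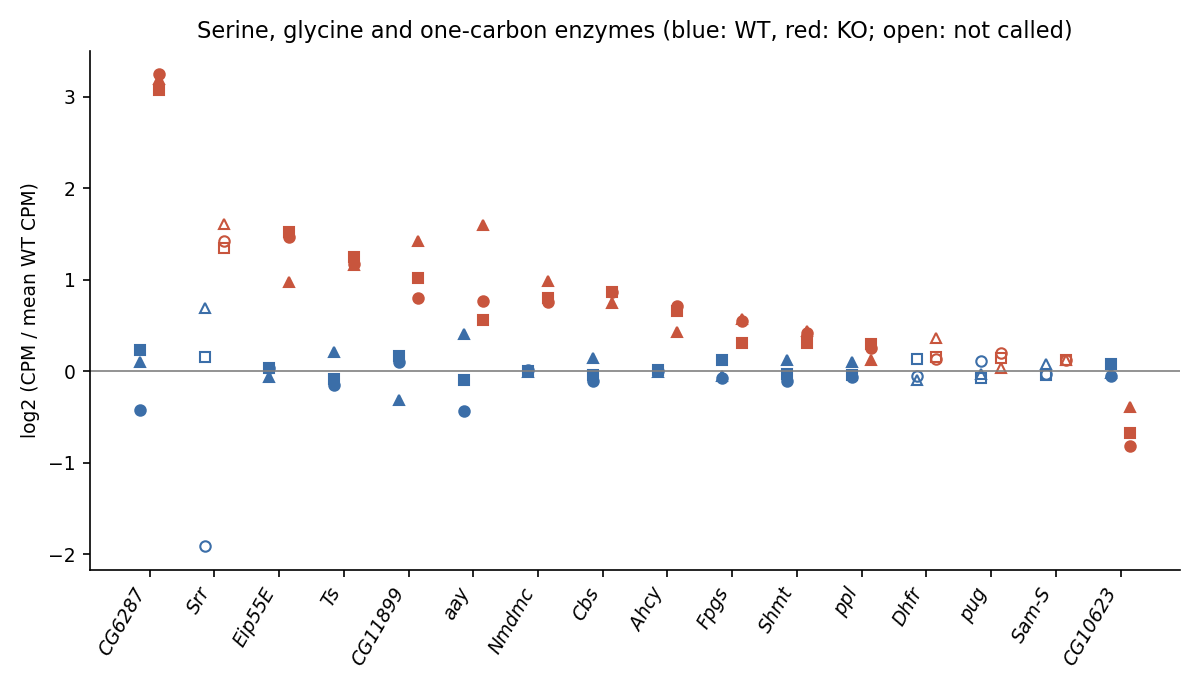
Serine, glycine and one-carbon enzymes (x axis), each library as log2 of its CPM over the mean WT CPM (y axis); blue is WT, red is KO, and open symbols mark genes that did not pass the test. CG6287 is farthest above WT, aay, Shmt and Nmdmc lie above it in every KO library, and CG10623 is the 1 called gene below it.

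Sesn, the sestrin, restrains TORC1 and in mammals its relatives sense leucine. It lies on 2R at 23713900 to 23734846, plus strand. Its 3 WT libraries held 117, 113 and 112 CPM and its 3 KO libraries, in the order of their numbers, held 126, 145 and 145 CPM. KO replicate 1 was the nearest of its group to WT, and the groups did not overlap. Sesn rose 1.22-fold (95% interval 1.09 to 1.36, log2 difference 0.28 ± 0.07 SE, adjusted p = 0.00935). Sesn shares 3097 exon bases on the same strand with CG46429, which the deposited tables do not list, so its reads could count for Sesn.

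slif, the cationic amino acid transporter slimfast (3L at 22881045 to 22893821, plus strand), was barely expressed. WT replicates 1 to 3 held 2.25, 1.595 and 1.68 CPM, from expected counts of 37, 16 and 32, and KO replicates 1 to 3 held 1.79, 1.78 and 3.30 CPM, from 25, 23 and 38. The groups overlapped, and KO replicate 3 stood above the other 5 libraries. The log2 difference was 0.30 ± 0.34 SE (95% interval -0.50 to 1.09, adjusted p = 0.486), and without KO replicate 3 it was -0.05. That interval runs from 1.41-fold lower to 2.13-fold higher, so neither direction was settled.

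Per length the 10 genes spanned 1267-fold in WT and 885-fold in KO, from crc to slif. crc averaged 1292 TPM in WT, rank 125 of 13918 genes with any TPM, and 1112 TPM in KO. Shmt came next, with 265 TPM in WT and 339 TPM in KO. In WT there followed AsnS (74.9 TPM) and PEK (67.9), whose ranges over libraries overlapped, then Nmdmc (57.4) and Sesn (55.9), whose ranges also overlapped, then Gcn2 (39.1). Thor (6.07) and aay (5.26) overlapped, and slif (1.02) was lowest. In KO the middle of this order was different: Nmdmc (102 TPM) and Sesn (67.1) stood above AsnS (49.5) and PEK (48.6). Thor (31.2) came to overlap Gcn2 (33.8), because KO replicate 1 alone held 58.7 TPM of Thor. As in WT, the ranges of Thor and aay (10.6) overlapped. The ranks of Nmdmc and Thor among all genes went from 2719 to 1460 and from 6741 to 4209.

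**Figure D4:**
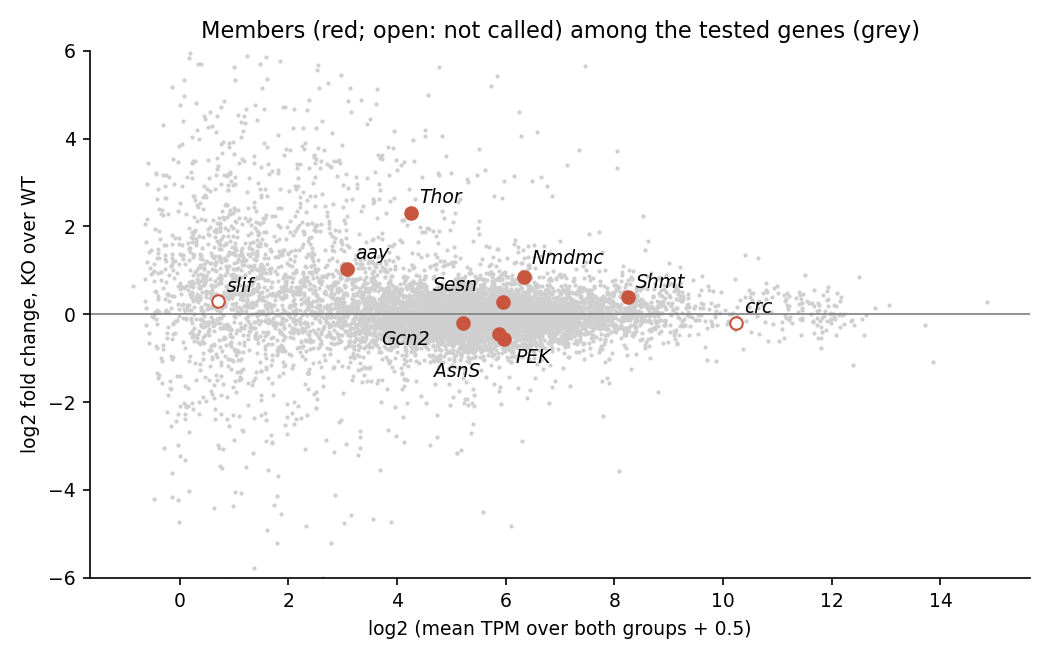
Log2 of the mean TPM over both groups plus 0.5 (x axis) against the log2 fold change of KO over WT (y axis, beyond whose range 39 genes are not shown); grey points are tested genes, and the 10 genes are in red, open where not called. crc is at the high end of the level axis near 0, while Thor and aay, the widest changes, are at low levels.

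The genes differed in how even their libraries were. The spread of log2 CPM within a group was larger for Thor than for 99.0% of tested genes in WT and 99.1% in KO, and for aay than for 92.2% and 94.8%. crc was even in WT (larger than 19.8% of genes) and uneven in KO (80.2%). The libraries numbered 1 were the highest of their group in both WT and KO for Thor, Gcn2, PEK, Shmt and aay, 5 of the 10, and for 1933 genes or 23.0% of all tested. These libraries also held the most nuclear rRNA, and the part of that in their levels was not tested.

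The isoform-weighted transcript length, a readout that does not use the amount of RNA, could be tested for 7 of the 10, since AsnS and aay have 1 transcript and slif is under 5 TPM. None of the 7 passed limma's test, beside 2.34% of 4224 genes called, and 1 of them, Shmt, was under 0.05 before adjustment (limma adjusted p = 0.312). Its mean length was 1650 ± 3.31 bases in WT and 1659 ± 5.43 bases in KO. The mean length of crc, whose transcripts differ in their leaders, was 1921 ± 2.29 bases in WT and 1919 ± 0.74 bases in KO (adjusted p = 0.554).

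The genes around the kinases and eIF2 moved in both directions. Of the 13 core eIF2 and initiation genes, 5 were higher and 4 lower (69.2% called beside 54.1% of all genes, median log2 difference -0.01). eIF2gamma (0.47) and eIF2beta (0.42), subunits that carry the initiator tRNA, rose, while eIF2Bbeta (-0.75) and eIF2Bepsilon (-0.65), of the exchange factor that reloads eIF2 with GTP, fell. The 1 Mb segments of eIF2Bbeta and eIF2Bepsilon had medians of -0.59 and -0.50, and with the segment offset neither passed (-0.16, adjusted p = 0.0725, and -0.14, adjusted p = 0.142). The segments of eIF2gamma and eIF2beta had medians of 0.28 and 0.23. With the offset both genes shrank to 0.19 and still passed (adjusted p = 0.017 and 0.019). eIF2gamma shares 352 exon bases with Su(var)3-9 on the same strand. Chosen after their values were seen, eIF2alpha, the substrate of Gcn2 and PEK, fell by 0.14 (adjusted p = 0.0330), and PPP1R15, the phosphatase subunit that reverses its phosphorylation, fell by 0.45 (adjusted p = 0.00381). Of the 4 kinase regulators and cofactors (100% called beside 54.1% of all genes), the chaperone Hsc70-3, known as BiP (0.34), and its co-chaperone P58IPK (0.24) were higher. Ire1, another endoplasmic reticulum stress sensor (-0.28), was lower but did not pass without KO replicate 2 (adjusted p = 0.0502) or KO replicate 3 (adjusted p = 0.0514). CG17514 (-0.39) was lower too, and in 5 of the alternatives its log2 difference was -0.34 to -0.36 and did not pass (adjusted p = 0.0563 to 0.0599).

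Among 14 tested stress bZIP factors and partners of crc, 3 were higher and 7 lower (71.4% called beside 54.1% of all genes, median -0.15). Atf3, a bZIP factor of stress and metabolism, fell from 234 ± 16.5 to 55.9 ± 10.02 CPM (log2 difference -2.06, adjusted p = 3.33e-05), farther than any of the 10 genes fell. Jra, the fly Jun, fell by 0.57, and kay, the fly Fos, rose by 0.51. CrebA, which drives secretory pathway genes, rose by 0.93. The segment offset gave -1.56 for Atf3, -0.52 for Jra, 0.52 for kay and 0.65 for CrebA, and all still passed. Xrp1, a bZIP factor of the stress response that shares targets with crc, and its partner Irbp18 fell by 0.55 and 0.47 (adjusted p = 0.00269 and 0.00959), and both were named after their values were seen.

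Amino acid carriers other than slif were called about as often as genes at large, and those called were higher in KO. Of 21 listed, 13 were expressed enough to test, 7 were higher and 0 were lower in edgeR's test (53.8% called beside 54.1% of all genes, median 0.33), and 6 did not pass. At an unadjusted p under 0.05, 1 carrier was lower, and DESeq2 also called 1 lower, while edgeR without the count filter called 3 lower and without both libraries numbered 1 called 2 lower. Without KO replicate 1, and likewise with the replicate block, 8 carriers were called higher and 1 lower. CG7255, listed as a transporter and named only by its number, rose from 3.90 ± 0.83 to 45.7 ± 4.998 CPM (log2 difference 3.57, adjusted p = 9.20e-06). The leucine carrier mnd rose by 1.18 and its heavy chain CD98hc by 0.85, and the carrier gb, genderblind, rose by 1.35. gb shares 32.8% of its exon bases with asRNA:CR45209 on the opposite strand. Under the segment offset the differences were 3.28 for CG7255, 0.88 for mnd, 0.75 for CD98hc and 1.18 for gb. Of 17 tested genes of amino acid synthesis and breakdown, 8 were higher and 5 lower (76.5% called beside 54.1% of all genes, median 0.17). The mitochondrial aspartate aminotransferase Got2 rose by 0.76, and Gclm, of glutathione synthesis, by 0.78. arg, arginase, rose by 2.46 at a level of 6.80 ± 1.06 CPM in KO, and shares 54.1% of its exon bases with elav on the opposite strand. Pepck1, of gluconeogenesis, fell from 98.8 ± 15.4 to 11.04 ± 3.56 CPM (-3.15), all of whose exon bases CG45087 shares. With the segment offset the differences were 0.47 for Got2, 0.44 for Gclm, 3.07 for arg and -2.96 for Pepck1.

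In the TORC1 and amino acid sensing list beside Sesn, 6 of 35 genes were higher and 12 lower (51.4% called beside 54.1% of all genes, median -0.13). foxo, which like crc can drive Thor, rose by 0.95. Tor fell by 0.62, AMPKalpha, of the energy-sensing kinase, by 0.86, and CG14812, annotated as Lamtor5 of the lysosomal scaffold, by 0.96. The segment of Tor had a median of -0.47, and with the segment offset Tor did not pass (-0.15, adjusted p = 0.0608). Under that offset foxo passed at 0.60, AMPKalpha at -0.36 and CG14812 at -0.46. Of 20 cytosolic aminoacyl-tRNA synthetases, which charge tRNAs and are ATF4 targets in mammals, 9 were higher, 1 was lower and 10 did not pass (50% called beside 54.1% of all genes, median 0.16). LeuRS rose by 0.80, beta-PheRS by 0.56, ThrRS by 0.41 and GluProRS by 0.34. The segment offset gave 0.32 for LeuRS, 0.37 for beta-PheRS, 0.16 for ThrRS and 0.06 for GluProRS, the last of which did not pass (adjusted p = 0.308).

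**Figure D5:**
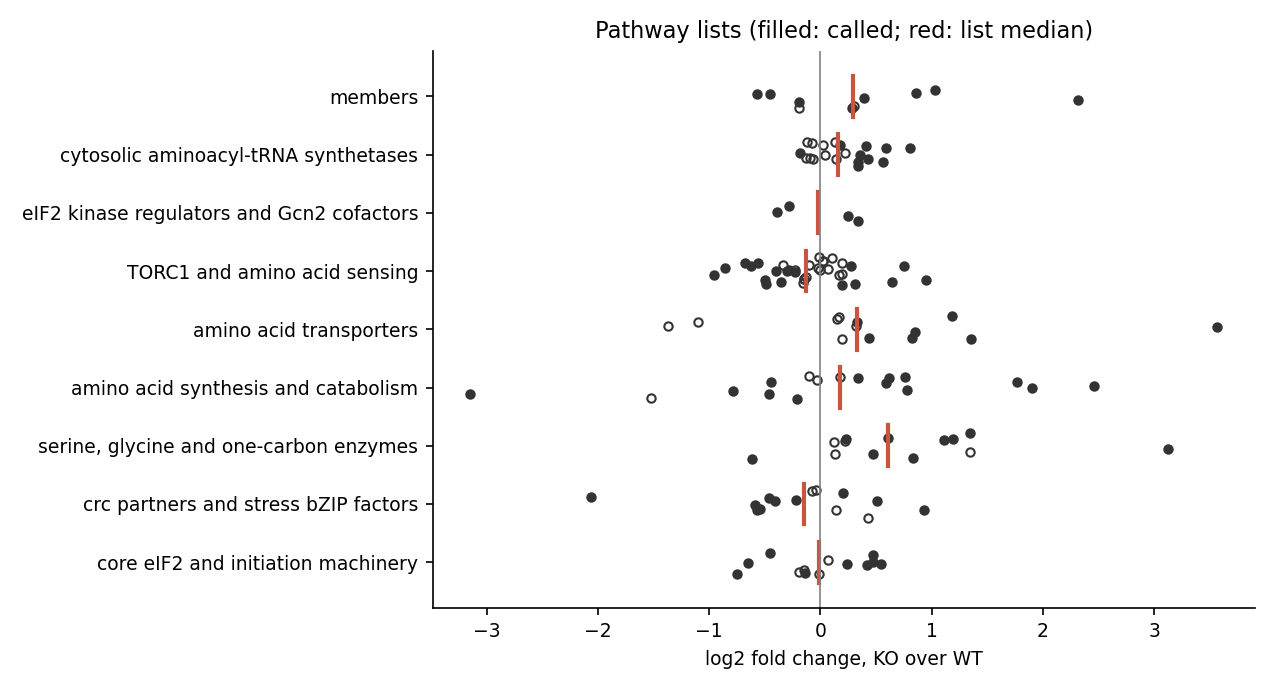
Log2 fold change of KO over WT (x axis) for every tested gene of the 10 genes and of the pathway lists (rows); filled points passed the test and red marks show each list's median. The one-carbon list has the highest median of the lists drawn (0.60), the called carriers lie above 0, and the initiation and TORC1 lists lie on both sides of it.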

How the data were processed

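Poly(A) RNA of Kc cells was measured in 3 WT and 3 KO libraries, grouped by the genotype field. The expected counts, estimated reads per gene that need not be whole, and the TPM values were deposited as RSEM gene tables, per the file headers, with a transcript length weighted by isoform use. Per the submitters' processing notes, the tools were RSEM 1.3.0, STAR 2.7.0f, cutadapt and CASAVA 1.7 on dm6. Annotation release and strand use were not stated, so reads of overlapping genes were parted only as far as RSEM could. Of the 17714 genes, 17587 were found in the Ensembl annotation used for coordinates and overlaps.

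Expected counts were rounded and tested over all genes in R 4.3.3 with edgeR 4.0.16 (quasi-likelihood test after TMM scaling and filterByExpr at a minimum count of 10), with p-values adjusted after Benjamini and Hochberg and called under 0.05. Unless another tool is named, each adjusted p in the text is from this test. Lengths were tested with limma 3.58.1 for genes of at least 2 transcripts and 5 TPM. DESeq2 1.42.0 and limma on log2(TPM + 0.5) or log2(TPM + 0.1) were alternatives, beside other filters, the summing of WT replicates 2 and 3, 1 Mb segment medians (at least 20 tested genes) as an offset, a replicate block, and leaving out libraries. The procedures were tested on simulated counts first.

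The 10 genes, the lists and the tests were chosen with earlier results of these data known. Besides the 10 genes, the naming rule took from each list the called genes of at least 1 TPM that had the lowest adjusted p, up to 4, and the 3 genes most like crc. Pepck was read as Pepck1 through RefSeq synonyms, and GlyS, listed among amino acid enzymes by mistake, is glycogen synthase and was not called. The planned promoter motif search was not run, and no sequence is shown.

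WT replicates 2 and 3 were closer than other pairs of the same group (chi-square per gene 1.67, against 2.92 for KO replicates 2 and 3 and 19.4 to 28.1 for the other same-group pairs), yet beyond sampling noise, and were kept as 2 samples. Deviations from the group mean correlated across genes between same-numbered libraries (r 0.52, 0.15 and 0.40), each above the limit of 0.1 for pairing, but WT replicate 2 did so with KO replicate 3 as well (0.38). No label states a pairing, and the reported fit has no block.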

Additional observations from a re-analysis of the deposited data

How the results depend on the processing

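Of the 10 genes, PEK, AsnS, Shmt, Nmdmc and Sesn kept their direction and call in all 16 alternatives run on every gene. The replicate block changed no call among the 10 genes and the list genes that the naming rule took, gave Thor 2.33 (adjusted p = 9.31e-05) and called 5061 genes in place of 4551. The number of the 10 that were higher in KO was 3 with WT replicates 2 and 3 summed, where Thor and aay did not pass (adjusted p = 0.0650 and 0.0844), and 3 to 5 with 1 library left out. The crc difference turned to 0.16 with the segment offset. Leaving out 1 library moved slif between -0.054 and 0.46, the length change of Nmdmc between -0.0041 and 0.0026 and that of Sesn between -0.00055 and 0.0024 (log2), and the called kinase regulators between 2 and 4. Without both libraries numbered 1, which left only the closest pair of each group, 11 carriers were called (9 higher and 2 lower) in place of 7. The cause of these shifts was not tested. Thor, aay and slif had the fewest reads of the 10. Genes named after their values were seen were not run under the alternatives.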
